A study of Homo sapiens with 9 samples.

Results

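The HOXA cluster genes HOXA3, HOXA4, HOXA5, HOXA6, HOXA7, HOXA9 and HOXA10 and the homeobox cofactor genes MEIS1, MEIS3 and PBX3 were examined in THP-1 cells depleted of RASSF2. These 10 genes were chosen by name, and all 10 had a row in the deposited table of 18522 genes. HOX proteins are homeodomain transcription factors encoded in clusters whose gene order follows the order of expression along the body axis. MEIS and PBX proteins are homeodomain proteins of the TALE class that bind DNA together with HOX proteins. In acute myeloid leukemia with a KMT2A fusion, HOXA9 and MEIS1 are well-known targets of the fusion protein, and PBX3 is a known partner of HOXA9.

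THP-1 is an established human monocytic leukemia line that carries a KMT2A-MLLT3 fusion. Cells carried shRASSF2-1 or shRASSF2-2, which are independent lentiviral short hairpin RNAs against RASSF2, or the control hairpin shCTRL, and there were 3 poly(A) RNA sequencing libraries in each of the 3 groups. All groups were transduced and then kept in puromycin at 1 ug/mL for 96 h, and RNA came from 2.0 M viable cells per condition. RASSF2, a Ras association domain protein that binds the Hippo pathway kinases, was the gene targeted. Nothing in the labels says whether the libraries of 1 group were grown as separate cultures. The p-values therefore reflect the spread among these libraries alone, and that spread may be technical.

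Libraries held 13.3 to 14.2 M assigned reads with shRASSF2-1, 14.5 to 15.2 M with shRASSF2-2 and 13.9 to 20.1 M with shCTRL. The description label puts shCTRL replicates 1 and 2 on a flow cell of their own, while shCTRL replicate 3 shared another with all 6 knockdown libraries. Within groups, log2 values correlated across genes at 0.9836 to 0.9869 with shRASSF2-1, 0.9858 to 0.9869 with shRASSF2-2 and 0.9574 to 0.9864 with shCTRL. All 10 monocytic leukemia markers checked had a row in the table. Their summed normalized read count was 27016 to 28020 with shRASSF2-1, 58476 to 61077 with shRASSF2-2 and 23610 to 27797 with shCTRL. The markers did not move together. LYZ and MPO were called down with each hairpin and CD33 and AZU1 with shRASSF2-2, where the other 6 were called up. MPO had 0 to 5.44 normalized reads with shRASSF2-1 and 3.4 to 5.49 with shRASSF2-2, against 50.6 to 59.3 with shCTRL. The summed count of 6 epithelial markers was 400 to 2253 with shRASSF2-1 and 1551 to 1953 with shRASSF2-2, against 20.6, 29.1 and 720 in shCTRL replicates 1, 2 and 3. The low sums were thus those of the 2 control libraries on their own flow cell. Of 9 connective tissue and vessel markers 6 were in the table and the endothelial gene PECAM1, which blood cells also express, was among them. Their summed count was 4131 to 4903 with shRASSF2-1, 4211 to 4775 with shRASSF2-2 and 5326 to 7144 with shCTRL, and COL1A2 was at 0 in all controls. Most of that sum was PECAM1, at 3974 to 4134, 3772 to 4181 and 5206 to 7105, which was called down with each hairpin. SPARC, STAB1 and CDH5 went the other way and were called up with each hairpin, as was COL1A1 with shRASSF2-2. SPARC had 75.3 to 484 normalized reads with shRASSF2-1 and 169 to 538 with shRASSF2-2, against 0, 2.49 and 69.4 with shCTRL. Lymphocyte markers summed to 151 to 159, 30.6 to 45.4 and 115 to 180 in the same 3 groups, and erythroid and megakaryocyte markers to 21 to 23, 25 to 26.4 and 20.6 to 28.1. The part of other cell types in the results was not tested.

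RASSF2 mRNA had normalized read counts of 134, 198 and 159 with shRASSF2-1 and 331, 342 and 262 with shRASSF2-2, against 1104, 1078 and 1010 with shCTRL. Every knockdown library lay below every control library, and the log2 fold changes were -2.71 with shRASSF2-1 and -1.78 with shRASSF2-2 (limma adjusted p = 3.92e-07 and 3.08e-06).

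Among the homeobox genes, MEIS3, HOXA3, HOXA7 and PBX3 were higher with each hairpin than with the control, HOXA9 was higher with shRASSF2-2, and HOXA10 was lower with shRASSF2-1. MEIS3 moved most, by 10.8-fold with shRASSF2-1 and 12-fold with shRASSF2-2. HOXA4, HOXA5 and HOXA6 did not pass the test with either hairpin, and MEIS1 was at the limit of detection. A gene was called when its adjusted p in limma, fitted over all 15465 genes tested, was under 0.05. Of the 10 genes, 9 passed the filter on low values, which asked for 10 or more normalized reads in 3 or more libraries, and MEIS1 did not. With shRASSF2-1, 4 of the 9 were called up, 1 was called down and 4 were not called. Of all genes tested, 56.1% were called in that comparison, 26.9% up and 29.2% down. With shRASSF2-2, 5 were called up, 0 down and 4 were not called, beside 60.9% of all genes called, 31.8% up and 29.1% down. With shRASSF2-2, limma gave 1 of the 9 a lower value at an unadjusted p under 0.05, HOXA6, and edgeR and DESeq2 also called 0 down. The share called in either comparison was near that of all genes, so the counts describe these genes and do not set them apart. Their median log2 fold change was 0.36 with shRASSF2-1 and 0.28 with shRASSF2-2, beside 0.02 and 0.04 over all genes tested. Groups did not overlap for 61.3% of all genes tested with shRASSF2-1 and for 64.5% with shRASSF2-2. Both comparisons use the same 3 control libraries.

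**Figure D1:**
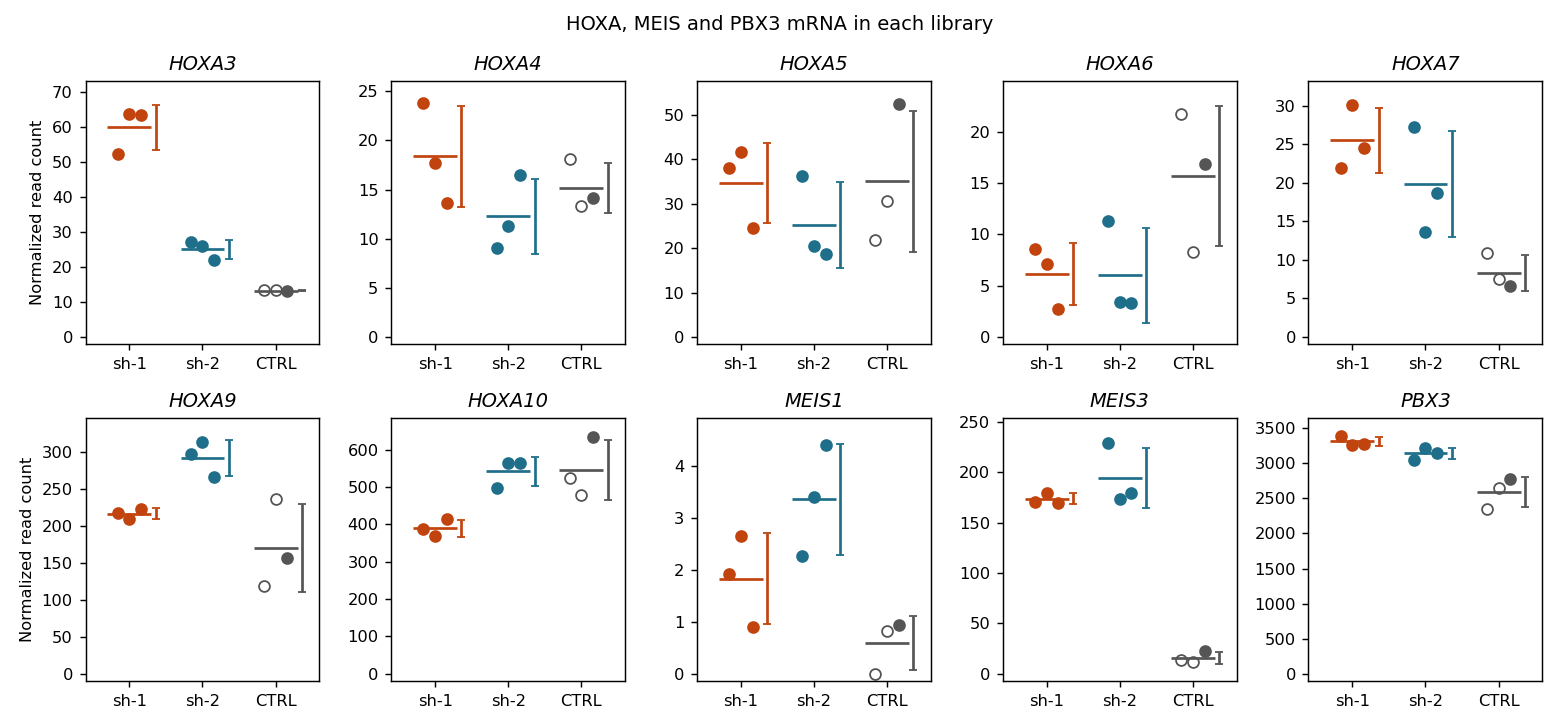
Normalized read count (vertical axis, starting near 0) of the 10 genes in each library, with shRASSF2-1 (sh-1), shRASSF2-2 (sh-2) and shCTRL (CTRL) from left to right. Points are libraries, open points are the 2 controls on their own flow cell, horizontal lines are group means and bars are SD (n = 3). HOXA3, HOXA7, MEIS3 and PBX3 had every knockdown point above every control point.

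HOXA3, an anterior gene of the cluster, occupies chr7:27107010-27152583 (GRCh38, minus strand, Entrez gene 3200), a span that holds HOXA4, HOXA5 and HOXA6 because its longest transcripts start far upstream. It had 52.4, 63.7 and 63.5 normalized reads with shRASSF2-1 and 27.2, 26.1 and 22 with shRASSF2-2, against 13.3, 13.3 and 13.1 with shCTRL. No library of one group overlapped another, shRASSF2-1 was highest and the controls were close together. The means were 59.8 ± 6.46, 25.1 ± 2.76 and 13.2 ± 0.101 (SD, n = 3 each). The log2 fold change was 2.09 (SE 0.233, limma adjusted p = 3.4e-05) with shRASSF2-1 and 0.87 (SE 0.233, limma adjusted p = 0.00811) with shRASSF2-2. Against control replicate 3 alone, on the shared flow cell, the values were 2.1 and 0.88. With the flow cell as a covariate the shRASSF2-2 call was lost at a value of 0.88 (limma adjusted p = 0.062). HOXA3 exons share 15.4% of their bases with antisense transcripts and 9.2% with transcripts of the same strand, and the strand setting of the authors' counting was not given in the labels or notes.

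HOXA7, at chr7:27153716-27156675 (GRCh38, minus strand), encodes a HOX protein from the middle of the cluster. Its normalized reads were 21.9, 30.1 and 24.5 with shRASSF2-1 and 27.2, 13.6 and 18.7 with shRASSF2-2, against 10.9, 7.47 and 6.56 with shCTRL. The lowest knockdown library stood above the highest control, and shRASSF2-2 varied most. The means were 25.5 ± 4.17, 19.8 ± 6.87 and 8.31 ± 2.28 (SD, n = 3 each), and the log2 fold changes 1.52 (SE 0.351, limma adjusted p = 0.00391) and 1.14 (SE 0.351, limma adjusted p = 0.0163). On the shared flow cell they were 1.80 and 1.41. Without shRASSF2-2 replicate 1, its highest library, the shRASSF2-2 value was 0.89 and the call was lost (limma adjusted p = 0.072). Of HOXA7 exon bases, 62.5% are also exons of the antisense transcript HOXA-AS3, so reads of the pair cannot be told apart without strand. The counts were also low, at 84, 53 and 25 reads over the 3 libraries of shRASSF2-1, shRASSF2-2 and shCTRL.

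HOXA9, the best-known leukemogenic HOX gene, lies at chr7:27162438-27165537 (GRCh38, minus strand). It had 218, 209 and 223 normalized reads with shRASSF2-1 and 297, 314 and 266 with shRASSF2-2, against 119, 236 and 157 with shCTRL. The shRASSF2-2 libraries lay above all others, while control replicate 2 lay above every shRASSF2-1 library. The means were 217 ± 7.37, 292 ± 24.5 and 171 ± 59.7 (SD, n = 3 each). HOXA9 rose with shRASSF2-2 by a log2 fold change of 0.83 (SE 0.211, limma adjusted p = 0.00598), and its value with shRASSF2-1 was 0.40 (95% interval -0.07 to 0.87, limma adjusted p = 0.13). The shRASSF2-1 value was 0.66 and called without control replicate 2 (limma adjusted p = 0.00705). Scaling by total reads moved it to 0.78 and a call (limma adjusted p = 0.00906), a scaling that moved the median of all genes in that comparison by 0.376. On the shared flow cell the values were 0.46 and 0.89, and both were called.

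HOXA10, the next gene toward the posterior end (chr7:27170605-27179861, GRCh38, minus strand), did not follow HOXA9. It had 388, 368 and 413 normalized reads with shRASSF2-1 and 497, 564 and 565 with shRASSF2-2, against 523, 477 and 633 with shCTRL. All shRASSF2-1 libraries lay below all others, and shRASSF2-2 overlapped the controls. The means were 389 ± 22.5, 542 ± 39.2 and 544 ± 79.8 (SD, n = 3 each). HOXA10 fell by 0.47 on the log2 scale with shRASSF2-1 (SE 0.119, limma adjusted p = 0.00651), and its value with shRASSF2-2 was 0.00 (95% interval -0.26 to 0.27, limma adjusted p = 0.995). With total read scaling the shRASSF2-1 value was -0.10 and not called (limma adjusted p = 0.531), beside a median of 0.396 over all genes under that scaling. On the shared flow cell the values were -0.70, called, and -0.23, not called.

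The genes between HOXA3 and HOXA7 were thinly covered. HOXA4, whose exons share 31.0% of their bases with a transcript of the same strand, had normalized reads of 23.8, 17.7 and 13.6 with shRASSF2-1 and 9.07, 11.3 and 16.5 with shRASSF2-2, against 18.1, 13.3 and 14.1 with shCTRL. All 3 groups overlapped, and the log2 differences were 0.24 (95% interval -0.54 to 1.02) and -0.31 (-1.09 to 0.47). HOXA5, which lacks any exon overlap in the annotation, had 38.1, 41.6 and 24.5 with shRASSF2-1 and 36.3, 20.4 and 18.7 with shRASSF2-2, against 21.8, 30.7 and 52.5 with shCTRL. Its log2 differences were 0.04 (-0.81 to 0.90) and -0.43 (-1.28 to 0.42), and the highest library was a control. HOXA6, with 39.3% of its exon bases antisense to HOXA-AS3, had 8.57, 7.07 and 2.72 with shRASSF2-1 and 11.3, 3.40 and 3.30 with shRASSF2-2, against 21.8, 8.30 and 16.9 with shCTRL. In HOXA6 control replicate 2 fell inside the range of the knockdown libraries, and the log2 differences of -1.24 and -1.34 did not pass (limma adjusted p = 0.0981 and 0.0724). The shRASSF2-2 value of HOXA6 passed without shRASSF2-2 replicate 1 (-1.84, limma adjusted p = 0.027) and without control replicate 2 (-1.71, limma adjusted p = 0.0449). These 3 genes had 16 to 114 reads over the 3 libraries of a group.

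MEIS3, the least studied of the MEIS genes (chr19:47403124-47422233, GRCh38, minus strand, Entrez gene 56917), had 171, 180 and 170 normalized reads with shRASSF2-1 and 229, 174 and 180 with shRASSF2-2, against 13.3, 11.6 and 22.5 with shCTRL. The lowest knockdown library was far above the highest control, and the hairpins overlapped each other. The means were 174 ± 5.73, 194 ± 30.3 and 15.8 ± 5.85 (SD, n = 3 each), with log2 fold changes of 3.43 (SE 0.237, limma adjusted p = 1.34e-06) and 3.58 (SE 0.237, limma adjusted p = 4.31e-07). Control replicate 3, on the flow cell of the knockdown libraries, was the highest control, and against it alone the values were 2.89 and 3.04, both called. Epithelial markers were also higher in that library than in the other controls. Within shRASSF2-1, MEIS3 spanned 170 to 180 and the epithelial sum 400 to 2253, and the part of other cells was not tested. MEIS3 exons overlap no other annotated exon. The RefSeq table also lists the processed copies MEIS3P1 and MEIS3P2, and the handling of reads that match such copies was not given in the labels or notes.

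PBX3, a TALE partner of HOX proteins (chr9:125747373-125967377, GRCh38, plus strand), was the most abundant of the 10 genes. It had 3393, 3266 and 3281 normalized reads with shRASSF2-1 and 3055, 3218 and 3155 with shRASSF2-2, against 2356, 2648 and 2771 with shCTRL. Every knockdown library exceeded every control, by a margin smaller than for the other genes called up. The means were 3313 ± 69.4, 3143 ± 82.0 and 2592 ± 213 (SD, n = 3 each), and PBX3 rose by 0.36 (SE 0.08, limma adjusted p = 0.00329) and 0.28 (SE 0.08, limma adjusted p = 0.0109) on the log2 scale. On the shared flow cell the values were 0.26 and 0.18, both called. With the flow cell as a covariate the same values were not called (limma adjusted p = 0.0759 and 0.184).

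MEIS1, the cofactor most often raised together with HOXA9 in KMT2A-rearranged leukemia (chr2:66435125-66573869, GRCh38, plus strand), was barely detected. Its reads were 2, 3 and 1 with shRASSF2-1 and 2, 3 and 4 with shRASSF2-2, against 0, 1 and 1 with shCTRL. The sums were 6 reads of 41.7 M (exact Poisson 95% interval 2.2 to 13.06), 9 of 44.5 M (4.12 to 17.08) and 2 of 51.0 M (0.24 to 7.22). The ratio of reads, scaled by the size factors and not by total reads, was 2.83 with shRASSF2-1 to shCTRL (95% interval 0.506 to 28.7). It was 5.21 with shRASSF2-2 to shCTRL (1.08 to 49.6). These intervals cover counting error only. With no filter on low values, limma gave log2 differences of 0.84 (adjusted p = 0.233) and 1.48 (adjusted p = 0.0401), and DESeq2 gave 1.53 (adjusted p = 0.414) and 2.41 (adjusted p = 0.156). MEIS1 thus passed the threshold with shRASSF2-2 in limma without the filter and not in DESeq2, at a depth of 0 to 4 reads per library.

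**Figure D2:**
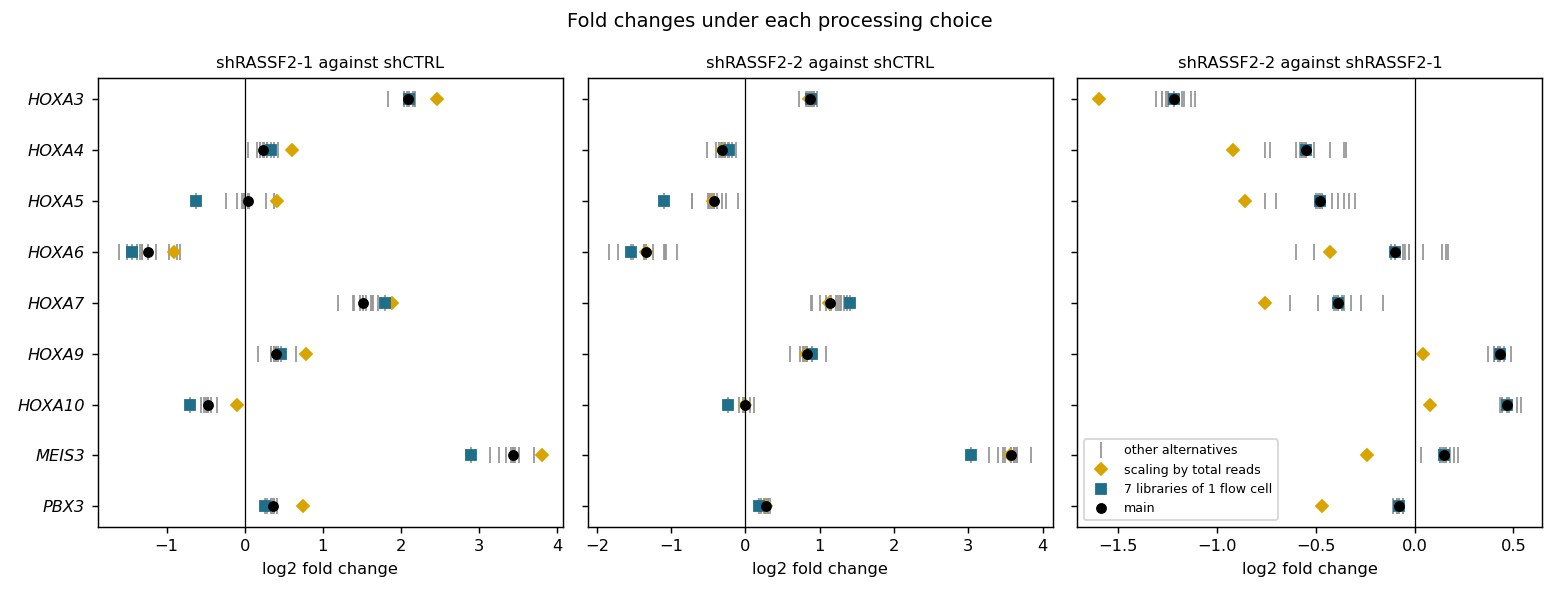
Log2 fold change (horizontal axis) of the 9 tested genes for each comparison, with black points for the values reported, squares for the 7 libraries of the shared flow cell, diamonds for scaling by total reads and ticks for the other alternatives. MEIS3, HOXA3 and HOXA7 kept a positive sign throughout both comparisons with shCTRL, and HOXA5 lay on both sides of 0 with shRASSF2-1.

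The authors' deposited table gives a log2 fold change and adjusted p-value for a single knockdown against control comparison whose libraries its header does not name. The authors' deposited table lists 3.43 for MEIS3 (adjusted p-value 1.2e-35), 1.54 for HOXA3 (0.00213), 1.37 for HOXA7 (0.00332) and 0.32 for PBX3 (0.00291). For HOXA9 the authors' deposited table has 0.55 with an adjusted p-value of 0.0819, and for HOXA10 it has -0.22 with 0.438. HOXA4, HOXA5, HOXA6 and MEIS1 have adjusted p-values of 0.957, 0.713, 0.0714 and 0.205 in the authors' deposited table.

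The hairpins were also compared with each other, in the same fit. Of the 9 genes tested, 1 was called higher with shRASSF2-2 than with shRASSF2-1 and 1 lower, beside 58.5% of all genes called, 30.0% up and 28.5% down. HOXA10 was the gene called higher, by 0.47 (SE 0.119, limma adjusted p = 0.00599). HOXA3 was the gene called lower, with a log2 fold change of -1.22 (SE 0.233, limma adjusted p = 0.00114). Groups did not overlap for 74.0% of all genes. RASSF2 mRNA itself was higher with shRASSF2-2 by 0.93. For MEIS3 the difference was 0.15 (95% interval -0.38 to 0.68) and for PBX3 -0.08 (-0.25 to 0.10). HOXA9 differed by 0.43 (-0.04 to 0.90, limma adjusted p = 0.105) although its shRASSF2-2 libraries all lay above its shRASSF2-1 libraries. Without control replicate 1, which enters through the shared spread, HOXA9 was called at limma adjusted p = 0.0114, and without control replicate 2 at 0.0265. Scaling by total reads moved the median of all genes by -0.392 here. Under it the HOXA10 difference was 0.08 and not called, while HOXA4 (-0.92) and PBX3 (-0.47) were called.

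Promoter sequence is shown for HOXA3, HOXA7, HOXA9 and MEIS3, the genes called up by more than 0.8 on the log2 scale with at least 1 hairpin, so that their start regions can be compared. Each is the 250 bases before a RefSeq gene start (GRCh38.p14), read 5′ to 3′ on the gene's own strand. For HOXA3 and MEIS3 it is the start farthest upstream. Capitals mark, on either strand, the CCAAT box bound by NF-Y (CCAAT or ATTGG) and the TATA motif (TATAAA or TTTATA). The MEIS motif TGACAG and the PBX-HOX motif TGATNNAT were also searched on both strands and occur in none of these 4 windows.
HOXA3, chr7:27152584-27152833, minus strand: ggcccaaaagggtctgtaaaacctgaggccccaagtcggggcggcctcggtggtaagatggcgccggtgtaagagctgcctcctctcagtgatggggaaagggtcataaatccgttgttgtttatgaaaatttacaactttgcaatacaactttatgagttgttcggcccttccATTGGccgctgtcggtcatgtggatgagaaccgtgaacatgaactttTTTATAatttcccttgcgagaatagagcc
HOXA7, chr7:27156676-27156925, minus strand: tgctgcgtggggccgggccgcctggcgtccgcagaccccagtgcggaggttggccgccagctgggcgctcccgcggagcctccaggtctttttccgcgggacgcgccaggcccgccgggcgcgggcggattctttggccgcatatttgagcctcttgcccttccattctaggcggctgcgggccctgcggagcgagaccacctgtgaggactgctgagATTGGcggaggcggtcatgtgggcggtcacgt
HOXA9, chr7:27165538-27165787, minus strand: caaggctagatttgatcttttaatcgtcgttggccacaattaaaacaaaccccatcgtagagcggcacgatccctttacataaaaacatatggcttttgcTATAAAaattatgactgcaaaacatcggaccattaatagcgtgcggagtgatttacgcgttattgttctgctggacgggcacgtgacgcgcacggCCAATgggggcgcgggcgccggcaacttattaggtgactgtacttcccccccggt
MEIS3, chr19:47422234-47422483, minus strand: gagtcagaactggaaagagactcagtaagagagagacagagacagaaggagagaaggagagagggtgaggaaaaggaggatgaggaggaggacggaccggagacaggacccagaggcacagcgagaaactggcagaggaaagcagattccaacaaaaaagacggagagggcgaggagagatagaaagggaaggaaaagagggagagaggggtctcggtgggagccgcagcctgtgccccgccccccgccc

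The HOXA3, HOXA7 and HOXA9 windows each hold 1 CCAAT box, which begins 76, 32 and 55 bases before the gene start. The upstream MEIS3 window holds none of the 4 motifs. HOXA3 also holds a TATA motif 29 bases before its start on the opposite strand, and HOXA9 holds one 150 bases before its start. RefSeq windows were available for 9 of the 10 genes, 17 windows in all with 7 of them for HOXA3, and HOXA5 has no entry. A CCAAT box was found in 9 of the 17 windows, in 8 of the 9 genes, whereas 32.0% of the 35116 promoters in the table hold one. TATAAA was found in 4 of the 17 windows against 10.7% of all promoters, and TGACAG in 2 of 17, those of HOXA4 and PBX3, against 13%. TGATNNAT occurred in 0 of the 17 windows and in 6.5% of all promoters. Windows of a gene lie close together and are not independent, and a match is a run of letters, not a bound site.

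Across the HOXA cluster on chromosome 7, HOTAIRM1, HOXA2, HOXA3 and HOXA-AS2 at the anterior end were each called up with shRASSF2-1, and the posterior gene HOXA13 was lower with each hairpin. HOXA2 rose by 2.04 on the log2 scale with shRASSF2-1 (limma adjusted p = 0.00301) and had a value of 0.58 with shRASSF2-2 (limma adjusted p = 0.287). HOXA2 counts were low, at 11.5 to 27.2 normalized reads with shRASSF2-1, 5.49 to 7.94 with shRASSF2-2 and 2.49 to 4.84 with shCTRL. HOTAIRM1, a noncoding RNA of myeloid cells, had 302, 282 and 249 normalized reads with shRASSF2-1 and 167, 184 and 170 with shRASSF2-2, against 79.8, 104 and 116 with shCTRL. Its knockdown libraries all lay above the controls, and it rose by 1.48 and 0.81 (limma adjusted p = 2.61e-05 and 0.00126). HOXA-AS2, antisense to HOXA3, rose by 2.47 and 1.51 (limma adjusted p = 0.00141 and 0.0191). Its counts were also low, at 12.4 to 14.5, 4.53 to 8.79 and, with shCTRL, 0.937 to 3.32 normalized reads. The depth limits the precision of the HOXA2 and HOXA-AS2 values. The shRASSF2-2 call of HOXA-AS2 was lost in DESeq2 (1.82, adjusted p = 0.059) and without control replicate 3 (1.28, limma adjusted p = 0.0545).

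At the posterior end HOXA11 had log2 values of -0.05 and -0.15 and was not called (limma adjusted p = 0.762 and 0.371). Without control replicate 1 HOXA11 was called down with both hairpins (-0.22 and -0.31, limma adjusted p = 0.0468 and 0.00667), on the shared flow cell it was called down with shRASSF2-2 (-0.29, limma adjusted p = 0.0453), and total read scaling turned its shRASSF2-1 value to 0.32, not called. HOXA13, the last gene of the cluster, had 810, 852 and 833 normalized reads with shRASSF2-1 and 661, 689 and 636 with shRASSF2-2, against 1043, 1087 and 986 with shCTRL. No library of one group overlapped another. HOXA13 fell by 0.32 and 0.65 (limma adjusted p = 0.00602 and 4.38e-05), and with total read scaling its shRASSF2-1 value turned to 0.06 and was not called (limma adjusted p = 0.531). The shRASSF2-1 call of HOXA13 was also lost with the flow cell as a covariate (-0.25, limma adjusted p = 0.102). HOTTIP, a noncoding RNA that starts beside HOXA13, moved in opposite directions with the hairpins. It had 759, 647 and 713 normalized reads with shRASSF2-1 and 215, 224 and 160 with shRASSF2-2, against 362, 297 and 371 with shCTRL. HOTTIP rose by 1.04 with shRASSF2-1 (limma adjusted p = 0.000178) and fell by 0.79 with shRASSF2-2 (limma adjusted p = 0.000923), and the difference between hairpins was -1.83 (limma adjusted p = 2.41e-06). HOXA11-AS, antisense to HOXA11, had values of 0.24, not called, and 0.51, called (limma adjusted p = 0.146 and 0.00631), and HOXA10-AS was not called with either hairpin. The shRASSF2-1 value of HOXA11-AS was called up with total read scaling (0.61, limma adjusted p = 0.00286). Its shRASSF2-2 call was lost with the flow cell as a covariate (0.48, limma adjusted p = 0.0602). Of 5 noncoding transcripts of the locus tested, 3 were up, 0 down and 2 not called with shRASSF2-1, and 3 up, 1 down and 1 not called with shRASSF2-2. Of 10 HOXA coding genes, 3 were called up, 2 down and 5 not called with shRASSF2-1, and 3, 1 and 6 with shRASSF2-2. Both sets of counts stand beside 56.1% of all genes called with shRASSF2-1 (26.9% up, 29.2% down). With shRASSF2-2 the share was 60.9% (31.8% up, 29.1% down).

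**Figure D3:**
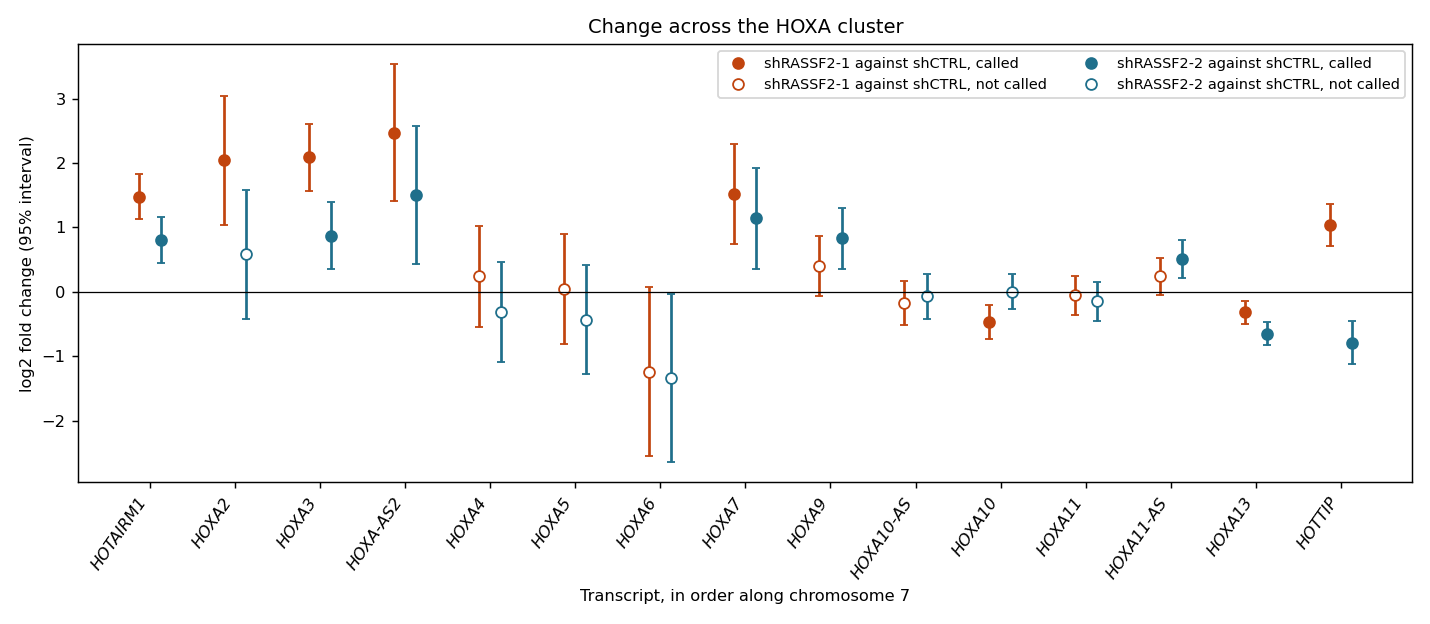
Log2 fold change against shCTRL (vertical axis, bars are 95% intervals) of 15 coding and noncoding transcripts of the HOXA cluster, ordered by their start on chromosome 7, with shRASSF2-1 left of shRASSF2-2 in each pair. Filled points were called, and HOTAIRM1 and HOXA3 on the left rose with each hairpin while HOXA13 near the right fell by 0.32 and 0.65.

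The composition of the cluster's output was measured as the share of reads over 10 HOXA coding genes, HOXA2 to HOXA13, which does not depend on scaling between libraries. These genes took 2119 to 2251 reads per library with shRASSF2-1, 1739 to 1798 with shRASSF2-2 and 1748 to 2843 with shCTRL. HOXA2 and HOXA3 together made up 3.97% ± 0.43 with shRASSF2-1 and 1.59% ± 0.18 with shRASSF2-2, against 0.76% ± 0.09 with shCTRL (SD, n = 3 each). No library of one group overlapped another, and the exact two-sided permutation p was 0.1 for each hairpin, the smallest that 3 libraries against 3 allow. HOXA9 and HOXA10 together took 30.08% ± 1.15 with shRASSF2-1 and 42.22% ± 1.71 with shRASSF2-2, against 31.36% ± 1.89 with shCTRL. The shRASSF2-2 libraries lay above all others (exact permutation p = 0.1), and the shRASSF2-1 libraries overlapped the controls (exact permutation p = 0.4). HOXA11 and HOXA13 made up 61.74% ± 0.68 and 52.98% ± 0.74, against 64.62% ± 2.45 with shCTRL. Here too only the shRASSF2-2 libraries lay apart from the controls, below them (exact permutation p = 0.1), while those of shRASSF2-1 overlapped them (exact permutation p = 0.2). HOXA4 to HOXA7 took 4.21% ± 0.88 and 3.21% ± 0.95, against 3.26% ± 0.66, with overlap between all groups.

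The balance of HOXA9 to HOXA10 was read within each library. There were 0.563, 0.567 and 0.541 HOXA9 reads per HOXA10 read with shRASSF2-1 and 0.598, 0.557 and 0.471 with shRASSF2-2, against 0.227, 0.494 and 0.249 with shCTRL. Control replicate 2 came within the range of shRASSF2-2, and the exact permutation p was 0.2 with shRASSF2-2. The shRASSF2-1 libraries lay above all controls, with an exact permutation p of 0.1, the smallest that 3 against 3 allow.

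**Figure D4:**
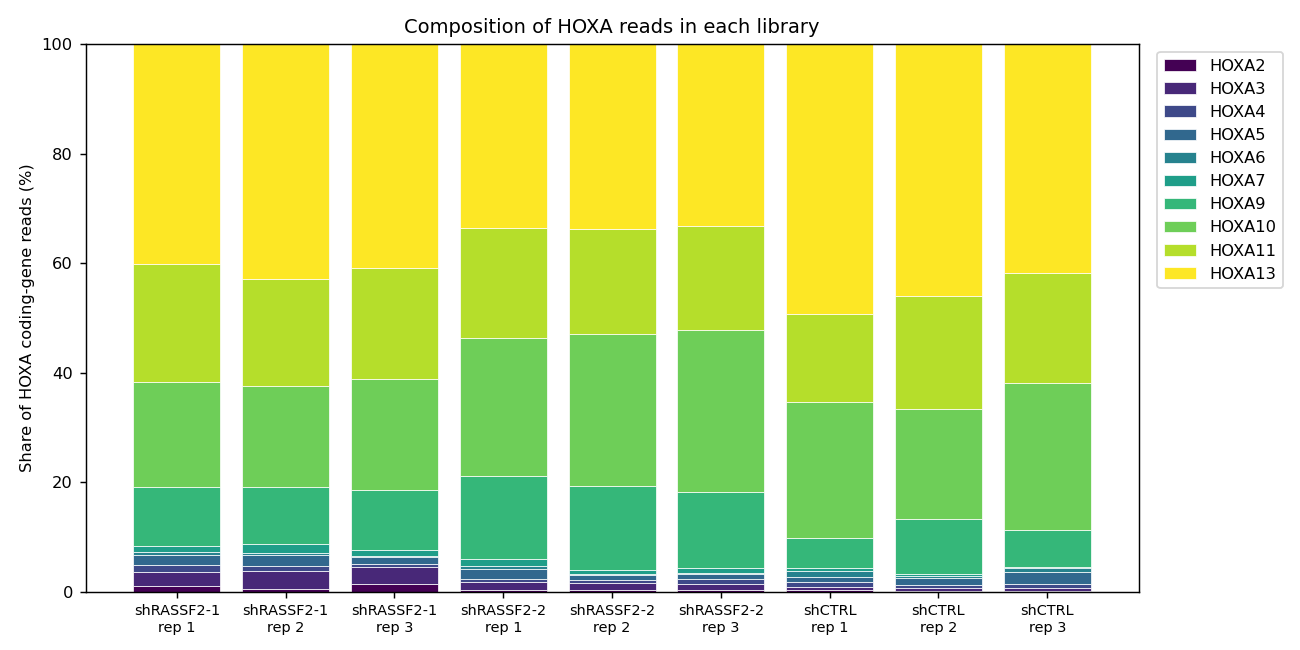
Share (vertical axis, percent) of reads over 10 HOXA coding genes taken by each gene, 1 bar per library, with shRASSF2-1, shRASSF2-2 and shCTRL libraries from left to right. The lowest blocks, HOXA2 and HOXA3, together reached 3.68% to 4.46% with shRASSF2-1 and 1.43% to 1.78% with shRASSF2-2, against 0.67% to 0.86% in controls.

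Levels between genes were compared per length, as normalized reads per kb of annotated exon. PBX3 was highest in every group, at 732 ± 15.3 with shRASSF2-1, 694 ± 18.1 with shRASSF2-2 and 572 ± 47.0 with shCTRL (SD, n = 3 each). HOXA10 came next at 105, 146 and 147 and then HOXA9 at 71.5, 96.5 and 56.3 in the same 3 groups, with the libraries of HOXA10 above those of HOXA9 in each group. MEIS3 ranked 4 of the 10 genes in the knockdown groups, at 33.9 ± 1.12 and 37.9 ± 5.91, and 8 of the 10 with shCTRL, at 3.09 ± 1.14. HOXA3 had 13.9 ± 1.5 with shRASSF2-1 and 5.83 ± 0.64 with shRASSF2-2, against 3.07 ± 0.0234 with shCTRL. In shCTRL, HOXA3, MEIS3 and HOXA7 (3.45 ± 0.946) did not differ beyond their spread. HOXA5 had 20.3 ± 5.28, 14.7 ± 5.68 and 20.5 ± 9.25. HOXA4, HOXA6 and HOXA7 lay between 3.45 and 12.2 in all group means, with overlapping ranges between HOXA4 and HOXA7 in the knockdown groups. MEIS1 was last at 0.167, 0.307 and 0.0539. MEIS2, a relative that was not among the 10 genes, had 35.4, 20.2 and 20.9 reads per kb.

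**Figure D5:**
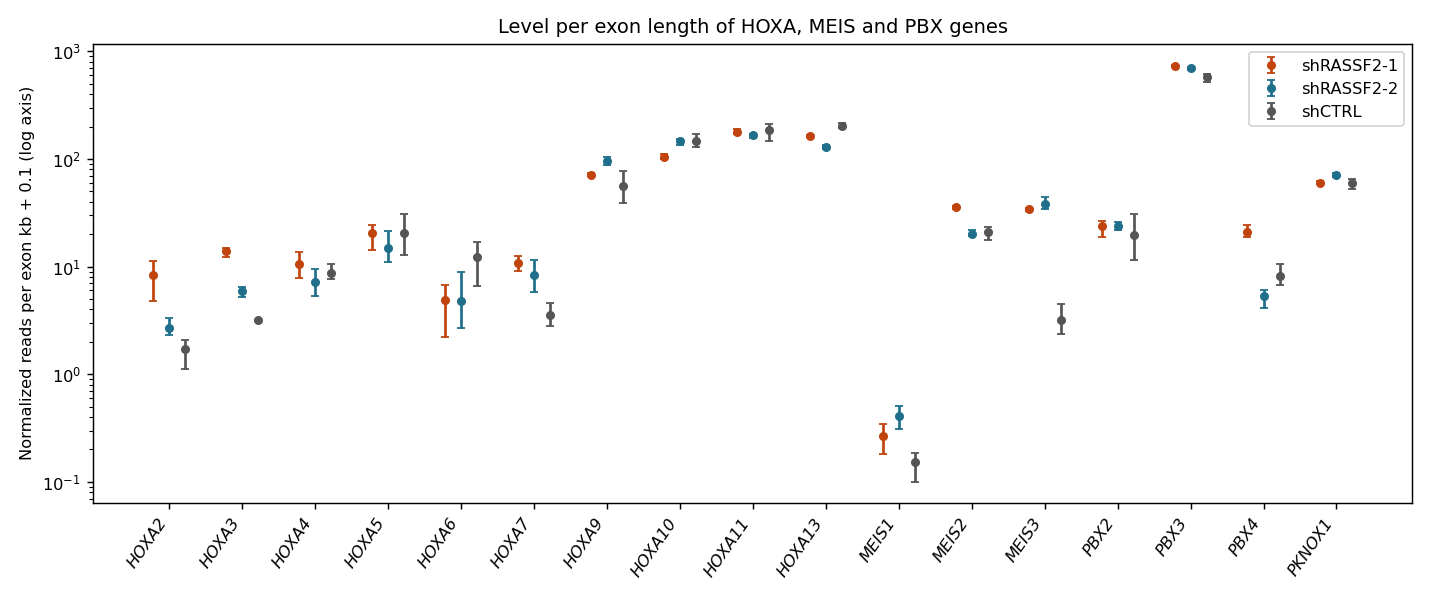
Normalized reads per kb of exon plus 0.1 (vertical axis, logarithmic) of HOXA, MEIS, PBX and PKNOX1 genes, with points for group means and bars from the lowest to the highest library (n = 3), for shRASSF2-1, shRASSF2-2 and shCTRL from left to right. MEIS3 reached the level of MEIS2 with shRASSF2-1, lay above it with shRASSF2-2 and was about the level of HOXA3 and HOXA7 in the controls.

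The wider homeobox families were counted from lists written with earlier results of these data known. Of 31 other HOX genes 14 were in the table and 8 were tested, with 4 up, 1 down and 3 not called with shRASSF2-1, and 3 up, 2 down and 3 not called with shRASSF2-2. Their median log2 fold change was 0.67 and 0.38, beside 0.02 and 0.04 over all genes, of which 56.1% and 60.9% were called. Up calls made up 26.9% and 31.8% of all genes, and down calls 29.2% and 29.1%. The called genes outside the HOXA cluster belonged to HOXB. HOXB3, a paralog of HOXA3, had 423, 433 and 489 normalized reads with shRASSF2-1 and 245, 199 and 254 with shRASSF2-2, against 162, 184 and 190 with shCTRL. HOXB3 rose by 1.32 and 0.37 (limma adjusted p = 1.5e-05 and 0.0299), and the difference between hairpins was -0.95 (limma adjusted p = 0.000126). On the shared flow cell the shRASSF2-2 value of HOXB3 was 0.28 and not called (limma adjusted p = 0.145). HOXB4 rose by 0.61 and 0.38 (limma adjusted p = 0.00585 and 0.0486), and on the shared flow cell neither value, 0.47 and 0.24, was called. The shRASSF2-2 call of HOXB4 was also lost under most other alternatives, with adjusted p = 0.0747 in DESeq2, 0.0701 and 0.055 in the edgeR fits, 0.0625 in limma with no filter and 0.0721 in limma with the replicate number as a block. HOXB6 rose by 1.59 and 1.89 (limma adjusted p = 0.00958 and 0.00319), with 0.69 and 0.99 on the shared flow cell, neither called. HOXB13 fell by 1.23 with shRASSF2-2 (limma adjusted p = 0.0113) and was -0.98 on the shared flow cell, not called (limma adjusted p = 0.134). HOXB7 was not called, except with shRASSF2-2 without shRASSF2-1 replicate 3 (1.02, limma adjusted p = 0.0437). HOXB2, HOXB9, HOXC4, HOXC6, HOXC9 and HOXC10 were in the table below the filter.

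Of 14 other TALE homeobox genes, 10 were in the table and 9 were tested. With shRASSF2-1, 4 were called up, 1 down and 4 not called, and with shRASSF2-2 2 were up, 2 down and 5 not called. Among all genes tested, 56.1% were called with shRASSF2-1 (26.9% up, 29.2% down) and 60.9% with shRASSF2-2 (31.8% up, 29.1% down). TGIF1, a corepressor of TGF-beta signaling, rose by 0.68 and 0.75 (limma adjusted p = 0.000826 and 0.00033). MEIS2 rose by 0.76 with shRASSF2-1 (limma adjusted p = 0.000523) and had a value of -0.04 with shRASSF2-2 (limma adjusted p = 0.793), and the difference between hairpins was -0.81 (limma adjusted p = 0.000317). PBX4 likewise rose by 1.34 with shRASSF2-1 (limma adjusted p = 0.00261) and had a value of -0.59 with shRASSF2-2 (limma adjusted p = 0.102). PBX2 and PKNOX1 were not called in either comparison. Without control replicate 3 PBX2 was called up with both hairpins (0.76 and 0.80, limma adjusted p = 0.0177 and 0.0129), and on the shared flow cell its values turned to -0.38 and -0.35, not called. PKNOX1 was called up with shRASSF2-1 under total read scaling (0.39, limma adjusted p = 0.0111) and with shRASSF2-2 without control replicate 2 (0.30, limma adjusted p = 0.0465).

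IRX3 and IRX5, Iroquois genes of the TALE class, were lower with shRASSF2-2. IRX3 had 2158, 2058 and 1998 normalized reads with shRASSF2-1 and 310, 411 and 298 with shRASSF2-2, against 1774, 2713 and 2748 with shCTRL. Its shRASSF2-2 libraries lay far below all others, with a log2 fold change of -2.81 (limma adjusted p = 2.53e-07), whereas the shRASSF2-1 value was -0.19 (limma adjusted p = 0.368). The shRASSF2-1 value of IRX3 was -0.40 and called without control replicate 1 (limma adjusted p = 0.00458). It was -0.41 on the shared flow cell, and 0.19 and not called with total read scaling (limma adjusted p = 0.388). IRX5 fell by 0.71 and 1.86 (limma adjusted p = 0.0012 and 8.36e-07), and with total read scaling its shRASSF2-1 value was -0.33 and not called (limma adjusted p = 0.0585). MKX, another TALE gene, had 2.86, 2.65 and 1.81 normalized reads with shRASSF2-1 and 30.6, 38.6 and 42.9 with shRASSF2-2, against 0, 0.83 and 4.69 with shCTRL, and was called up with shRASSF2-2 (limma adjusted p = 0.00019). TGIF2 rose by 0.48 with shRASSF2-1 (limma adjusted p = 0.0168), and its value on the shared flow cell was 0.24. That call was lost with the flow cell as a covariate (0.24, limma adjusted p = 0.318). It was also lost without shRASSF2-1 replicate 1 or 3 (0.44 and 0.43, limma adjusted p = 0.0584 and 0.0643). IRX6 was below the filter.

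Genes beside the cluster were also read. Of 6 flanking genes 5 were tested, with 1 up, 3 down and 1 not called with shRASSF2-1, and 3 up, 0 down and 2 not called with shRASSF2-2, beside 56.1% and 60.9% of all genes called. The nearest flanking gene on the anterior side, SKAP2, which encodes a Src family adaptor, had 1428, 1449 and 1506 normalized reads with shRASSF2-1 and 2460, 2427 and 2456 with shRASSF2-2, against 1598, 1912 and 1711 with shCTRL. It fell by 0.25 and rose by 0.50 (limma adjusted p = 0.0245 and 0.000371), and with total read scaling the shRASSF2-1 value was 0.13 and not called. The shRASSF2-1 call of SKAP2 was also lost with the flow cell as a covariate (-0.23, limma adjusted p = 0.149). The same held without control replicate 2 (-0.18, limma adjusted p = 0.0932) and without shRASSF2-1 replicate 1 or 2 (limma adjusted p = 0.0767 and 0.0732). SNX10, a sorting nexin farther out, fell by 1.89 with shRASSF2-1 (limma adjusted p = 1.45e-07) and had -0.19 with shRASSF2-2 (limma adjusted p = 0.073). The shRASSF2-2 value of SNX10 was called down in edgeR with TMM (-0.22, adjusted p = 0.0353). It was also called down in limma without control replicate 1 (-0.24, limma adjusted p = 0.0139). The homeobox gene EVX1, on the HOXA13 side, had 15.2, 18.6 and 13.6 normalized reads with shRASSF2-1 and 6.80, 13.6 and 14.3 with shRASSF2-2, against 0, 0 and 3.75 with shCTRL. It was called up with each hairpin (3.31 and 2.84, limma adjusted p = 0.00141 and 0.00299), and on the shared flow cell the values were 1.81, called, and 1.34, not called. TAX1BP1 fell by 0.75 with shRASSF2-1 and rose by 0.59 with shRASSF2-2 (limma adjusted p = 2.16e-05 and 8.17e-05). HIBADH had values of -0.18 and -0.56 and was not called with either hairpin. Without control replicate 1 it was called down with both (-0.62 and -1.0, limma adjusted p = 0.00139 and 1.52e-05), as it was on the shared flow cell (-0.60 and -0.99, limma adjusted p = 0.0151 and 0.000485).

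Genes of the machinery known to set HOXA transcription were counted next, and in this and the following lists the counts stand beside 56.1% of all genes called with shRASSF2-1 (26.9% up, 29.2% down) and 60.9% with shRASSF2-2 (31.8% up, 29.1% down). Of 26 genes of KMT2A fusion complexes and elongation factors, 3 were up, 10 down and 13 not called with shRASSF2-1, and 5 were up, 12 down and 9 not called with shRASSF2-2, with median log2 fold changes of -0.16 and -0.23, beside 0.02 and 0.04 over all genes. The share called was near that of all genes. PSIP1 (LEDGF), which tethers KMT2A to chromatin, had 1215, 1089 and 1154 normalized reads with shRASSF2-1 and 330, 388 and 309 with shRASSF2-2, against 1831, 2217 and 2139 with shCTRL. It fell by 0.84 and 2.59 (limma adjusted p = 0.000109 and 2.62e-08). ASH2L, a core subunit of KMT2 methyltransferase complexes, fell by 1.46 and 1.21 (limma adjusted p = 6.54e-07 and 9.77e-07). CDC73 of the PAF1 elongation complex fell by 1.25 with shRASSF2-1 (limma adjusted p = 9.22e-07) and had -0.05 with shRASSF2-2 (limma adjusted p = 0.647). AFF3 fell by 2.25 with shRASSF2-2 (limma adjusted p = 2.77e-07) and had -0.35 with shRASSF2-1 (limma adjusted p = 0.0539). The shRASSF2-1 value of AFF3 was called down in DESeq2 (-0.37, adjusted p = 0.0437). In limma it was called down without control replicate 2 or 3 (-0.43 and -0.45, limma adjusted p = 0.0449 and 0.0221). With total read scaling the shRASSF2-1 value of AFF3 was 0.03 and not called (limma adjusted p = 0.868). KMT2A itself had log2 values of 0.04 and -0.57, the second called (limma adjusted p = 0.843 and 0.0138). The shRASSF2-1 value of KMT2A was called up on the shared flow cell (0.28, limma adjusted p = 0.0112), without control replicate 1 (0.29, limma adjusted p = 0.00117) and with total read scaling (0.42, limma adjusted p = 0.0439), and its shRASSF2-2 call was lost with the flow cell as a covariate (-0.34, limma adjusted p = 0.239). KMT2A is outside the naming rule and was chosen after its values were seen.

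Polycomb proteins keep HOX genes silent, and H3K27 demethylases remove their mark. Of 19 such genes tested, 8 were up, 6 down and 5 not called with shRASSF2-1, and 6 up, 8 down and 5 not called with shRASSF2-2, where 56.1% and 60.9% of all genes were called. Their median log2 fold change was -0.08 and -0.29, beside 0.02 and 0.04 over all genes. EZH2, the H3K27 methyltransferase, had 890, 772 and 837 normalized reads with shRASSF2-1 and 673, 750 and 735 with shRASSF2-2, against 1836, 2162 and 2475 with shCTRL. Every knockdown library was below every control, and EZH2 fell by 1.36 and 1.57 (limma adjusted p = 4.68e-06 and 8.17e-07). RBBP4, a histone-binding subunit of the same complex, fell by 0.70 and 1.94 (limma adjusted p = 3.02e-05 and 1.76e-08). CBX2, a reader subunit of Polycomb repressive complex 1, fell by 0.61 and 1.71 (limma adjusted p = 0.00357 and 1.83e-06), and its shRASSF2-1 value was -0.23 and not called with total read scaling. PHC2, another subunit of that complex, rose by 0.93 and 0.41 (limma adjusted p = 6.5e-06 and 0.0014).

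Of 15 tested genes described as HOXA9 or MEIS1 targets, 2 were up, 8 down and 5 not called with shRASSF2-1, and 6 up, 7 down and 2 not called with shRASSF2-2. The median log2 fold change was -0.33 and -0.71, beside 0.02 and 0.04 over all genes, of which 56.1% and 60.9% were called. FLT3, the receptor tyrosine kinase, had 53.3, 36.2 and 52.6 normalized reads with shRASSF2-1 and 105, 151 and 133 with shRASSF2-2, against 486, 454 and 411 with shCTRL. FLT3 fell by 3.24 and 1.80 (limma adjusted p = 5.14e-07 and 1.61e-05), and no library of one group overlapped another. BCL2, an inhibitor of apoptosis, fell by 2.73 and 2.04 (limma adjusted p = 1.66e-07 and 3.47e-07). MYB, a transcription factor of progenitor cells, fell by 0.48 with shRASSF2-1 and fell by 2.64 with shRASSF2-2 (limma adjusted p = 0.0109 and 6.97e-08), and its shRASSF2-1 value was -0.10 and not called with total read scaling. The kinase PIM1 fell by 0.94 with shRASSF2-1 and rose by 2.34 with shRASSF2-2 (limma adjusted p = 0.000123 and 1.08e-07).

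Transcription factors that bind with HOXA9 were also read. Of 6, 2 were up, 1 down and 3 not called with shRASSF2-1, and 3 up, 2 down and 1 not called with shRASSF2-2. CEBPA, a myeloid transcription factor, fell by 0.70 and 0.63 (limma adjusted p = 0.000358 and 0.000539). RUNX1, a regulator of blood development, fell by 1.31 with shRASSF2-2 (limma adjusted p = 1e-06) and had -0.17 with shRASSF2-1 (limma adjusted p = 0.168). STAT5A rose by 0.47 and 0.56 (limma adjusted p = 0.00213 and 0.000542). SPI1, the myeloid factor PU.1, rose by 0.28 and 0.64 (limma adjusted p = 0.028 and 0.000171), and its shRASSF2-1 value was 0.16 and not called on the shared flow cell. With the replicate number as a block that value was 0.28 and not called (limma adjusted p = 0.0551).

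The genes whose patterns were most like those of HOXA9, MEIS1 and PBX3 were ranked by the root mean square difference of centred log2 values over the 9 libraries, among 11474 genes whose mean reached 5 CPM. For HOXA9 these were FHDC1 (0.118), MUT (0.122) and LRRC8D (0.129). FHDC1 had 91.4 ± 3.86 normalized reads with shRASSF2-1 and 120 ± 19.2 with shRASSF2-2, against 66.7 ± 13.9 with shCTRL. For PBX3 they included FBH1 (0.033) and UBE2B (0.038), and FBH1 had 1061 ± 31.2, 966 ± 6.07 and 797 ± 60.5 in the same 3 groups. For MEIS1 the nearest were HEXA (0.238), ZBED5-AS1 (0.238) and LAPTM4A (0.248), over MEIS1 counts of 0 to 4 reads per library. The likeness is a description over libraries that share their groups.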

How the data were processed

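Poly(A) RNA was sequenced from THP-1 cells in 9 libraries, 3 per group. The submitters' processing notes name DESeq2 1.18.1, featureCounts 1.6.2, HISAT2 2.1.0 and Picard with build hg38, and give no role, order, strand setting or annotation. The authors deposited normalized signal, in which each library's gene counts had been divided by its size factor. All values (100%) came out as whole reads, to within 0.001, once divided by what 1 read is worth in that library, so reads were recovered. For 1 comparison of knockdown with control, the authors' deposited table adds log2 fold changes and adjusted p-values.

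The deposited normalized values were put on the log2(value + 1) scale and tested by limma-trend (limma 3.58.1, R 4.3.3), and fold changes are on that scale, which understates the change of low genes. A filter of 10 or more in 3 or more libraries kept 15465 and left out 3057. The fit took all 9 libraries and no covariate, and Benjamini-Hochberg adjustment ran over all genes tested. Members and gene lists were chosen with earlier results of these data known. RASSF2 and all 10 genes are named, then up to 4 genes per list whose mean reached 1 CPM, taken by smallest p against shCTRL (every gene in the table for HOX, TALE, HOXA locus and flanking genes), and the 3 genes nearest in pattern to HOXA9, MEIS1 and PBX3. A few genes that this rule names are not reported here. The alternatives included edgeR 4.0.16 and DESeq2 1.42.0 on recovered reads. With TMM scaling edgeR called 8741 genes with shRASSF2-1, 9386 with shRASSF2-2 and 9121 between the hairpins. Each test was also run on simulated counts to check that known changes were found. For 195 genes the table gives no symbol and for 22 the symbol had become a date, which was restored from the Entrez identifier. Coordinates and promoters are from RefSeq (GRCh38.p14), matched by Entrez identifier or symbol, and exon lengths and overlaps are from GENCODE.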

Additional observations from a re-analysis of the deposited data

How the results depend on the processing

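Each of the 9 tested genes was refitted in the 3 comparisons under 21 alternatives, except HOXA6 under a filter of 1 CPM, which it failed. Of 564 such values, 523 kept direction and side of the threshold, 11 gained a call, 6 lost one and 24 changed sign, none of them called in either fit. MEIS3 kept its calls against shCTRL under every alternative run. With the flow cell as a covariate, 3 genes in place of 5 were called with shRASSF2-2, because HOXA3 and PBX3 lost their calls; the cause was not tested. Leaving out each library gave 5 to 6 genes called with shRASSF2-1, 5 to 6 with shRASSF2-2 and 2 to 3 between the hairpins, and over all genes 7434 to 10231, 8392 to 10710 and 7888 to 10986.

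Sign changes concerned values near 0. HOXA5 with shRASSF2-1 (0.04 as reported) was -0.02 in DESeq2, -0.01 and -0.02 in edgeR with TMM and with size factors, and -0.62 both with the flow cell as a covariate and on the shared flow cell, and -0.24 to 0.38 with each library left out. HOXA10 with shRASSF2-2 (0.00) was -0.01, -0.03 and -0.01 in the same 3 fits, -0.01 with total read scaling, -0.23 with the covariate and on the shared flow cell, and -0.09 to 0.11 with each library left out. Between the hairpins, HOXA6 (-0.10) ranged over -0.60 to 0.17 with each library left out, and MEIS3 (0.15) was -0.24 with total read scaling.

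Deviations from the group means correlated at -0.156 to 0.12 between same-numbered libraries of different groups. Such correlations cannot tell whether same-numbered libraries were prepared together, and the main fit used no pairing. With the replicate number as a block, 5, 5 and 2 of the 9 genes were called, as without it, and 8289, 9126 and 8754 of all genes.

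No knockdown library shared a flow cell with control replicates 1 and 2. The 7 libraries of the other flow cell hold 1 control, whose spread is assumed to be that of the knockdown groups. HOXA3, HOXA4, HOXA5, HOXA6, HOXA7 and MEIS1 had few reads, and the depth limits the precision of their values.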
